A study of Nothobranchius furzeri with 3 samples.

Results

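Skin of the turquoise killifish, Nothobranchius furzeri, was examined for 5 miRNA features of the surface epithelium, listed in the table as nfu-mir-205, nfu-mir-203, nfu-mir-8, nfu-mir-200 and nfu-mir-184. The species prefix is mostly left out below. They were chosen by name from the 324 features of the count table, not by a cutoff on their values, though earlier results of these data were known. Of the 5, 4 had counts in every library. The study sequenced small RNA from total RNA of skin in 3 libraries, all from male fish (strain MZM-04/10p) that were 39 weeks old. They form 1 group, with no second age, tissue, treatment or genotype, and are numbered 1 to 3 by accession. The sample titles carry different codes, but no label states that the libraries come from separate fish, and their spread may in part be technical. All values are those of whole skin, in which fewer cells of a type and less of a miRNA per cell cannot be told apart.

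A miRNA is a short RNA that guides Argonaute proteins to transcripts carrying a match to its seed and lowers their stability or translation. In vertebrate skin, miR-205 is enriched in stratified epithelium and its basal cells, and in mice it is needed for the growth of skin stem cells. miR-203 acts on the opposite side of the same tissue: in mice it rises as keratinocytes leave the basal layer and represses the basal regulator p63. The miR-200 family keeps epithelial cells in contact by repressing ZEB1 and ZEB2, repressors of E-cadherin, and in zebrafish it is known from epidermis and olfactory epithelium. Its fly relative is called mir-8, the name under which some annotations file the whole family. miR-184 is best known from the corneal and lens epithelium, and in mice it has also been described in the epidermis, where it acts in differentiation.

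The libraries held 5021238, 8545292 and 9590428 counts. Counts per 1000000 (CPM) are counts divided by the library total. Values called TMM-scaled were also corrected by edgeR's trimmed mean of M-values, with factors of 0.94, 0.99 and 1.07, so that a few very abundant miRNAs do not shift the rest. Names in the table carry no 5p or 3p arm, and a ligation-based library captures some sequences better than others. A level of 1 feature against another therefore holds for these libraries and need not be a ratio of molecules. All errors are SD over the 3 libraries (n = 3), and intervals are 95% exact binomial (Clopper-Pearson) intervals, which cover the counting error of reads only. The labels mention no molecular identifiers, so copies of 1 molecule may have been counted as separate reads.

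The 4 detected members fell into 2 levels. mir-205 was far above the others, and mir-8, mir-203 and mir-184 lay close together well below it. The 5 features together took 6.76% of counts in library 1 (6.73 to 6.78), 7.30% in library 2 (7.29 to 7.32) and 9.08% in library 3 (9.07 to 9.10), a mean of 7.71% ± 1.22. mir-205 made up 86.0% ± 2.22 of these counts, mir-8 5.22% ± 0.441, mir-203 4.51% ± 1.02 and mir-184 4.25% ± 2.23. The 4 members other than mir-205 together took 1.04% of library 1, 0.834% of library 2 and 1.38% of library 3.

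nfu-mir-205 had 287034, 552862 and 739299 counts in libraries 1, 2 and 3. These were 57164, 64698 and 77087 CPM, or 60821, 65270 and 71817 TMM-scaled CPM. It was highest in library 3, and its levels lay close together. It ranked 5 of the 324 features by mean CPM, at 66316 ± 10060 CPM, and held rank 5, 6 and 5 in the single libraries. Next above it was mir-181, a miRNA also known from lymphocytes, at 113224 ± 25231 CPM, which exceeded mir-205 in 3 of 3 libraries. Next below was let-7, the conserved family of developmental timing, at 46742 ± 23390 CPM. The log2 ratio of mir-205 to let-7 was 0.60 ± 0.696 and was positive in 2 of 3 libraries, so these neighbours in rank did not differ beyond their spread.

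nfu-mir-8 had 16052, 33366 and 48672 counts, equal to 3197, 3905 and 5075 CPM in libraries 1, 2 and 3. The TMM-scaled values were 3401, 3939 and 4728 CPM, again highest in library 3 and lowest in library 1. Its mean of 4059 ± 949 CPM placed it at rank 20. The features beside it in rank were mir-143, a miRNA of smooth muscle, at 4208 ± 1139 CPM and the endothelial mir-126 at 4048 ± 879 CPM. Neither differed from mir-8 beyond the spread, with log2 ratios of mir-8 to them of -0.045 ± 0.641 and 0.0018 ± 0.659.

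No read was counted for nfu-mir-200 in any of the 3 libraries. The floor used for a count of 0 was 3 counts per library, which is 0.597, 0.351 and 0.313 CPM in libraries 1, 2 and 3. The upper bound of the two-sided 95% exact binomial interval is somewhat higher, at 0.735, 0.432 and 0.385 CPM. The counts of mir-8 were 5351, 11122 and 16224 times the floor of 3 counts in libraries 1, 2 and 3. Against the upper bound of the interval these factors are smaller. The files do not state how the names were assigned, so that mir-8 holds the reads of the whole miR-200 family here is a reading of the name. Which family members contribute to it cannot be read from the table, which has no row named mir-141 or mir-429, the other vertebrate names of the family, among the features analysed here.

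nfu-mir-203 had 13623, 23964 and 49544 counts in libraries 1, 2 and 3, or 2713, 2804 and 5166 CPM. The TMM-scaled values were 2887, 2829 and 4813 CPM. Library 3 stood above the other libraries, which lay close together. The TMM-scaled ratio of library 3 to library 1 was 1.67 (1.64 to 1.70) and that of library 2 to library 1 was 0.980 (0.960 to 1.001). The mean was 3561 ± 1391 CPM at rank 25, and 2759 CPM without library 3. Its neighbours in rank were mir-25, of a miR-17-92 type cluster, at 3653 ± 526 CPM and mir-425 at 3359 ± 2196 CPM, and neither differed from it beyond the spread.

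nfu-mir-184 had 22540, 13957 and 33689 counts in libraries 1, 2 and 3, or 4489, 1633 and 3513 CPM. The TMM-scaled values were 4776, 1648 and 3273 CPM. It was the only one of the 4 that was not highest in library 3, and it was low in library 2, where its fewest reads came from a library deeper than library 1. The TMM-scaled ratio of library 2 to library 1 was 0.345 (0.338 to 0.352), and that of library 3 to library 2 was 1.99 (1.95 to 2.03). Its rank moved from 21 in library 1 to 37 in library 2 and 26 in library 3. The mean was 3212 ± 1451 CPM at rank 27, between mir-425 and mir-221 (3153 ± 1098 CPM), which did not differ from it beyond the spread.

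**Figure D1:**
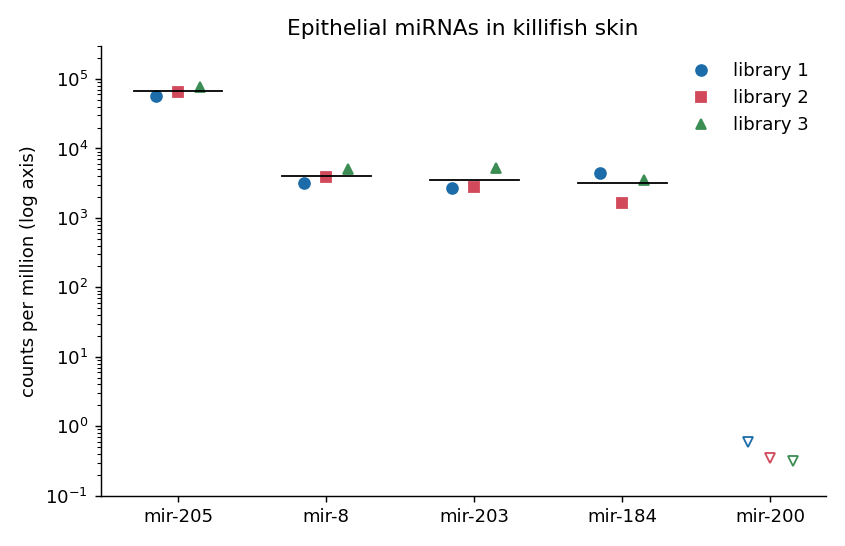
CPM on a log axis for the 5 features, with 1 point per library, a line at the mean of the 3 libraries, and open triangles for the floor of 3 counts at a count of 0. mir-205 sits at 57164 to 77087 CPM, mir-8, mir-203 and mir-184 between 1633 and 5166 CPM, and the floors for mir-200 lie below 1 CPM.

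Ratios between members within a library need no scaling. mir-205 had 17.9, 16.6 and 15.2 times the counts of mir-8 in libraries 1, 2 and 3, a log2 ratio of 4.05 ± 0.118. It had 21.1, 23.1 and 14.9 times the counts of mir-203, a log2 ratio of 4.27 ± 0.332. Over mir-184 the ratios were 12.7, 39.6 and 21.9, a log2 ratio of 4.48 ± 0.819. mir-205 was higher in 3 of 3 libraries in each of these pairs. The ratio to mir-8 was steady, while that to mir-184 differed 3.11-fold between its highest and lowest library.

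Among the lower members no order held in every library. mir-8 had 1.18 times the counts of mir-203 in library 1 (1.15 to 1.21), 1.39 times in library 2 (1.37 to 1.42) and 0.982 times in library 3 (0.970 to 0.995), a log2 ratio of 0.23 ± 0.252. mir-8 over mir-184 was 0.712, 2.39 and 1.44, a log2 ratio of 0.43 ± 0.878, and mir-203 over mir-184 was 0.604, 1.72 and 1.47, a log2 ratio of 0.20 ± 0.813. mir-184 led mir-8 and mir-203 in library 1 and was below both in libraries 2 and 3. None of the 3 differed from another beyond the spread between libraries. Without library 2 the log2 ratio of mir-203 to mir-184 was -0.085. In an exact permutation test that flips the signs of the 3 log2 ratios (two-sided), the 3 pairs with mir-205 gave p = 0.25, the smallest that 3 libraries allow, with Benjamini-Hochberg adjusted p = 0.5 over the 6 pairs. The pairs of mir-8 with mir-203 and with mir-184 gave p = 0.5 (adjusted p = 0.6), and mir-203 with mir-184 gave p = 0.75 by the same exact test.

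**Figure D2:**
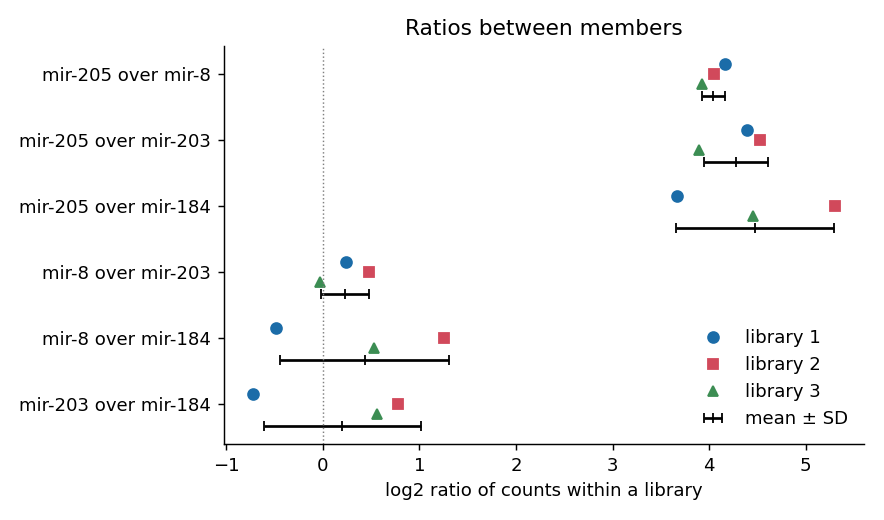
The log2 ratio of counts for the 6 pairs of detected members, with 1 point per library and the mean ± SD below it. Ratios with mir-205 lie well to the right of 0 in every library, from 12.7 to 39.6 times, whereas the pairs among mir-8, mir-203 and mir-184 lie on both sides of 0.

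How far a member moved between libraries was read against the other features. For the 115 features whose counts averaged 100 or more, the highest library exceeded the lowest by a median of 1.92 times in TMM-scaled CPM, and by more than 2 times in 46.1% of them. This ratio was 1.18 for mir-205, 1.39 for mir-8, 1.70 for mir-203 and 2.90 for mir-184, so 1 of the 4 exceeded 2. Counted from the steadiest feature, mir-205 was at place 9 of 115, mir-8 at 24, mir-203 at 46 and mir-184 at 91. Without library 3 the ratio of mir-203 was 1.10, against a median of 1.54 over features. Without library 2 that of mir-184 was 1.46, still above the median of 1.36. A ratio over fewer libraries tends to be smaller. A chi-square test of the 3 counts, with Benjamini-Hochberg adjustment over the 158 features whose counts averaged 10 or more, found all 4 members to differ between libraries beyond the counting error of reads, as did 81.6% of the features tested. At such depth even the small range of mir-205 passes, and the test compares these libraries, not conditions.

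**Figure D3:**
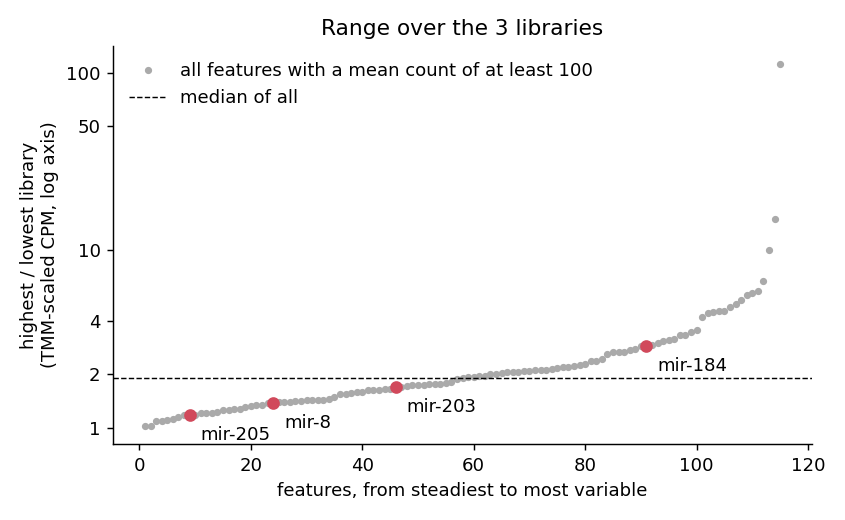
The highest over the lowest library in TMM-scaled CPM, on a log axis, for the 115 features with 100 or more counts on average, ordered from the steadiest to the most variable, with the members in red and the median of 1.92 as a dashed line. mir-205, mir-8 and mir-203 lie below the median and mir-184, at 2.90, above it.

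The members did not all move together. mir-205, mir-8 and mir-203 were highest in library 3, where 33.9% of the 115 features were highest, while mir-184 was highest in library 1 (24.3%). mir-205 and mir-8 were lowest in library 1, as were 40.9% of features, and mir-203 and mir-184 were lowest in library 2, as were 27.8%. None of the 4 was highest in library 2 or lowest in library 3, as 41.7% and 31.3% of the features were. With DESeq2 size factors mir-205 was lowest in library 2, at 65577, 63200 and 73693 scaled CPM, and with library totals alone mir-203 was lowest in library 1. The place of library 3 as the highest for these 3 members, and of library 2 as the lowest for mir-184, was the same under all 3 scalings. Between libraries 1 and 2 the median feature shifted by -0.16 on the log2 scale with DESeq2 size factors against TMM, and between libraries 1 and 3 by 0.19 with library totals against TMM.

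Likeness of pattern was measured as the SD over the 3 libraries of the log2 ratio of 2 features, which is 0 where both keep the same proportion. Between mir-205 and mir-8 it was 0.118, which placed mir-8 at position 9 of the 114 other features in closeness to mir-205. Between mir-8 and mir-203 it was 0.252, and between mir-205 and mir-203 0.332, position 35 of 114 counted from mir-205. Counted from mir-203, mir-8 was at position 10 and mir-205 at position 19. mir-184 was at 0.819 from mir-205 (position 90 counted from mir-205), 0.878 from mir-8 and 0.813 from mir-203. Counted from mir-184, mir-203 was at position 44, mir-205 at 47 and mir-8 at 55 of 114. The median over all other features was 0.495 for mir-205 and 0.902 for mir-184. With 3 libraries such values describe the pattern and carry no test.

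The features closest to mir-205 were mir-456, at an SD of 0.0294, mir-883 at 0.0451 and the neural mir-138 at 0.0456. In libraries 1, 2 and 3, mir-456 had only 94, 180 and 250 counts, and mir-883 had 535, 1016 and 1298. At such counts, counting error can move these small SDs, so the order of the closest features is not firm. Those closest to mir-8 were mir-155, a miRNA of activated leukocytes, at 0.0234, mir-210, which responds to low oxygen, at 0.0361, and mir-22 at 0.0443. Of these, mir-210 also stands in the list of other epithelial miRNAs given below. mir-8 had 44.0, 42.6 and 43.0 times the counts of mir-155 in libraries 1, 2 and 3, where mir-155 had 365, 783 and 1132. For mir-203 they were mir-221 (0.0660), mir-301 (0.111) and the feature named mir-337 (0.137). mir-203 and mir-221 also lay at a similar level, at a ratio of 1.07, 1.12 and 1.17. Such closeness is common in a table of this size: the median over the 115 features of the SD to their own closest feature was 0.0737.

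The closest features to mir-184 were mir-375, mir-146 and mir-183, of which mir-375 and mir-183 also stand in the list of other epithelial miRNAs. That list held 15 of the 114 features compared with mir-184, and the overlap was not tested. mir-375, a miRNA of hormone-secreting cells, was at an SD of 0.0673, followed by mir-146, a miRNA of inflammatory signalling, at 0.234 and by mir-183, of the cluster of sensory organs, at 0.264. mir-375 had 1717, 1122 and 2468 counts, and mir-184 had 13.1, 12.4 and 13.7 times as many in libraries 1, 2 and 3. The TMM-scaled values of mir-375 were 364, 132.5 and 240 CPM, those of mir-146 were 3287, 1567 and 2696 CPM, and those of mir-183 were 258, 116 and 162 CPM. All 3 were, like mir-184, highest in library 1 and lowest in library 2. They were picked for likeness to mir-184 over these same libraries, so the shared order is no separate result.

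**Figure D4:**
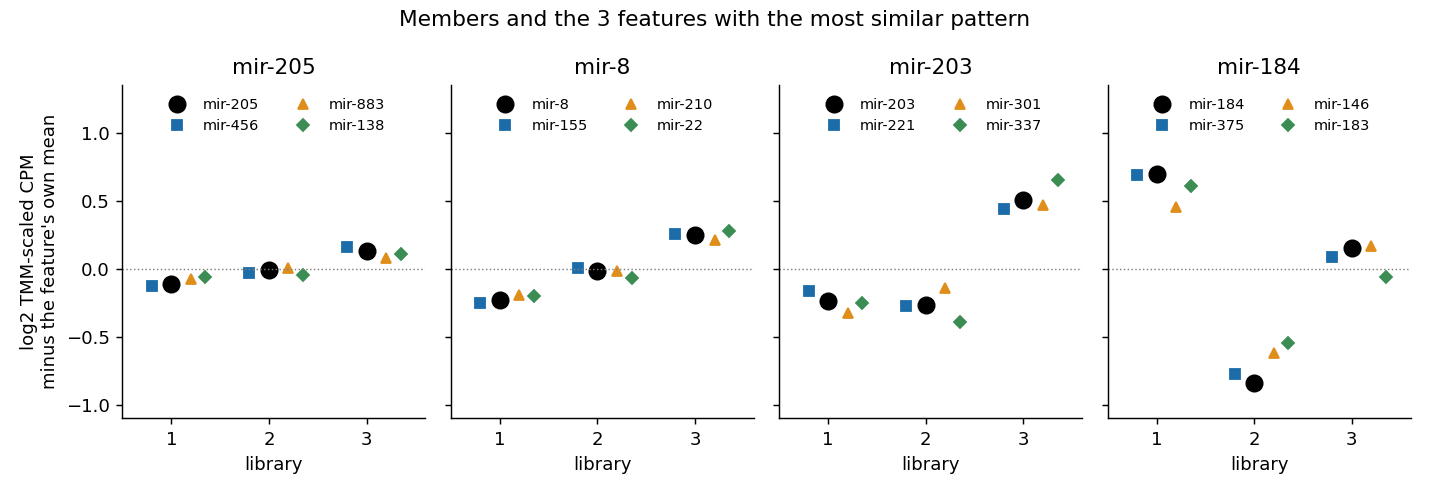
TMM-scaled CPM on a log2 scale, minus each feature's own mean over the libraries, for the 4 detected members (black) and the 3 features with the most similar pattern. mir-205 and its closest features stay near 0, while mir-184, mir-375, mir-146 and mir-183 fall below 0 in library 2. The features were picked for this likeness, so it is no separate result.

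Other miRNAs known from epithelium were taken from a list of 21 miRNA numbers, of which 16 had a row, as 18 features. Of the 17 features tested, 13 differed between libraries by the chi-square test, or 76.5%, against 81.6% of all features. The median range between libraries was 1.45 times over the 15 features that averaged 100 or more counts, against 1.92 over all features. The range exceeded 2 in 5 of these 15, against 53 of 115 (46.1%) over all features. The 5 were mir-183, mir-375, mir-135, mir-192 and mir-194. Together the 18 features held 21.5% ± 3.67 of counts, more than the 5 epithelial members (7.71% ± 1.22) in every library. This order rested on mir-204, which held most of the sum. The leading features of the list were mir-204, known from pigmented epithelia, at 15.7% ± 3.69 of counts, mir-27, of a cluster co-transcribed with mir-24, at 4.07% ± 0.164, and lin-4, the worm name of miR-125, at 1.05% ± 0.216. mir-31, known from wounded epidermis and keratinocyte growth in mice, held 186 ± 47.6 CPM at rank 67. mir-34, a target of p53, held 18.5 ± 3.05 CPM.

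These epithelial miRNAs did not follow a single pattern either. In TMM-scaled CPM, mir-31 was at 170, 243 and 147 in libraries 1, 2 and 3, highest in library 2. mir-204 was lowest in library 3, at 172001, 192721 and 109597 TMM-scaled CPM, where mir-205 was highest. The gut and kidney miRNA mir-192 had 4987, 954 and 5004 TMM-scaled CPM, and was low in library 2 as mir-184 was.

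Features of other cell types that skin could hold also differed between the libraries. The 3 striated muscle features with a row summed to 17396, 6731 and 20812 TMM-scaled CPM in libraries 1, 2 and 3, lowest in library 2 as was mir-184. The 2 erythroid features summed to 1205, 2277 and 474 TMM-scaled CPM, highest in library 2. The endothelial mir-126 had 5185, 4183 and 2910 TMM-scaled CPM, lowest in library 3, where mir-205, mir-8 and mir-203 were highest. The 5 leukocyte features summed to 5068, 5062 and 4287 TMM-scaled CPM, but they did not move alike: mir-142 and mir-223 were highest in library 2, mir-146 in library 1, and mir-155 and mir-150 in library 3. The 5 mesenchyme features, 1 of them with only 0 to 3 counts, summed to 20409, 27371 and 17611 TMM-scaled CPM. The peak in library 2 was mostly that of mir-199 (10292, 22266 and 12059), and mir-214 (551, 667 and 474) was also highest there. By contrast, mir-143 and mir-145 were, like mir-184, highest in library 1 and lowest in library 2. The 5 neural features summed to 1485, 2453 and 2532 TMM-scaled CPM, lowest in library 1 as were mir-205 and mir-8. Most of this sum was mir-128 (1093, 2028 and 2115), and the features did not all move alike. mir-128, mir-9 and mir-138 were lowest in library 1, with mir-9 highest in library 2. mir-218, which changed little, was lowest in library 3. The neuronal mir-124 was also lowest there, but had only 19, 46 and 22 counts. The 4 sensory features, all of which also stand in the list of other epithelial miRNAs, summed to 1304, 857 and 1063 TMM-scaled CPM. Of these mir-182 and mir-183 were lowest in library 2, while mir-96, with 8, 15 and 29 counts, and mir-96a, with 7, 18 and 24, had too few to give an order. The 5 epithelial members summed to 71885, 73686 and 84630 TMM-scaled CPM, above each of these lists of other cell types in every library. This order rested on mir-205, with 86.0% of the members' counts. The members other than mir-205 took 1.04%, 0.834% and 1.38% of all counts, below the mesenchyme features in every library (1.92%, 2.71% and 1.89%). They were also below the striated muscle features in libraries 1 and 3 (1.64% and 2.23%), and above them in library 2 (0.667%). These comparisons are uneven, since the lists kept their own leading features. Of the mean mesenchyme sum of 2.17% ± 0.467, mir-199 alone held 1.49% ± 0.643. Of the mean striated muscle sum of 1.51% ± 0.791, mir-133 alone held 1.47% ± 0.770. The part of the tissue mix in the values of the members was not tested.

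**Figure D5:**
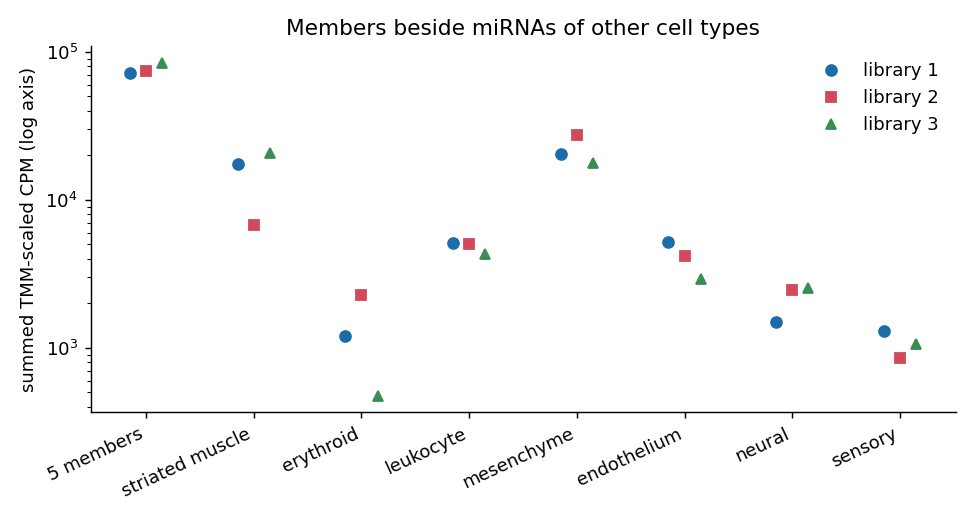
Summed TMM-scaled CPM on a log axis for the 5 members and for the lists of other cell types, with 1 point per library. The members lie at 71885 to 84630 and change little, with 86.0% of their counts from mir-205. The muscle sum falls to 6731 in library 2, and the erythroid sum ranges from 474 to 2277.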

How the data were processed

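The authors deposited unnormalized read counts, as whole numbers for each miRNA name in each library. Tools listed by the submitters' processing notes are SAMtools 1.3.1-9, BWA 0.7.12-r1039, Trimmomatic 0.36 and bcl2fastq 1.8.4, with no role or setting. The build, the annotation and the way reads were counted, including those that match several miRNAs, are not stated in the sources at hand, so related miRNAs may be merged under 1 name. Per the labels' protocols, library preparation used Illumina's TruSeq kit for small RNA.

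CPM, ranks and ratios were computed from the counts. TMM factors came from edgeR 4.0.16 and size factors from DESeq2 1.42.0 (R 4.3.3), and the rest from pandas 2.3.3, scipy 1.17.1 and numpy 2.4.6 under Python 3.11.15. The chi-square test used library totals as expectation and an adjusted p of 0.05 as threshold. It was also run on simulated counts that held only counting error and set changes in some features. That run therefore says nothing of other spread between libraries. Named features are the members, their neighbours in rank, the 3 most similar in pattern among features that averaged 100 or more counts, and members of the lists. Members and lists were chosen with earlier results of these data known.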

Additional observations from a re-analysis of the deposited data

How the results depend on the processing

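No paired analysis was possible because there is only 1 group of libraries. Under the alternatives run, ranks moved by less than their SD over libraries, mir-205 stayed above the other members, and 4 members differed between libraries. Without mir-204 in the denominator, the summed share was 9.13% and mir-205 had 78509 CPM, since the total is smaller. With library totals, and then with DESeq2 size factors, the highest library exceeded the lowest by a factor of 1.349 and 1.17 for mir-205, 1.59 and 1.32 for mir-8, 1.90 and 1.803 for mir-203, 2.75 and 3.23 for mir-184, and 1.91 and 1.84 for the median feature. After TMM scaling the median was 1.797 when features averaging 10 or more counts were admitted, leaving out those without counts in some library. With each library left out in turn, the ratio of highest to lowest library ranged from 1.01 to 1.18 for mir-205, 1.07 to 1.39 for mir-8, 1.10 to 1.70 for mir-203, 1.46 to 3.13 for mir-184 and 1.36 to 1.55 for the median feature, TMM factors being refitted each time. The value for mir-184 above 2.90 came without library 3. The log2 ratio of mir-203 to mir-184 ranged from -0.085 to 0.67, reversing without library 2. Of the 3 features closest to mir-203, 1 was shared when features averaging 10 or more counts were admitted. Features that differ between libraries numbered 108 to 123 with a library left out, against 129 of 158 (81.6%). The features tested were picked anew by mean count each time, so these numbers are not shares of the same set. Of the 115 features averaging 100 or more counts, as the 4 members do, 112 differed.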
